A study of Mus musculus with 9 samples.

Results

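This is an account of 10 genes of type 2 and gp130 cytokine signalling, chosen by gene symbol, in sorted skin cells of mice with and without a Flg knockout. The genes are Il4ra, Il13ra1, Il1r1, Il1rl1, Osmr, Il6st, Jak1, Stat3, Stat6 and Socs3, and all 10 were found among the 49671 gene rows of the count table. RNA was sequenced from 4 ko/ko and 5 wt/wt samples, genotypes that refer to Flg, which encodes filaggrin, a structural protein of the outer skin layers. The title of the series asks how keratinocyte expression alters when Flg is deficient. Both groups were CD45-negative, CD49f-positive cells taken from skin suspensions by flow sorting, where CD45 marks leukocytes and CD49f is the integrin alpha-6 chain of basal epidermal cells. Each sample title carries its own identifier, read here as 1 animal. The sources used here do not give the strain, age or sex of the mice or the kind of Flg allele, and the labels name no treatment. The library identifiers run in separate blocks for ko/ko and wt/wt, so genotype and the order of library handling cannot be told apart.

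IL-4 and IL-13, the cytokines of type 2 inflammation, act on skin cells through a receptor made of the IL-4 receptor alpha chain and the IL-13 receptor alpha-1 chain, which signals through Janus kinases to the transcription factor STAT6. Cytokines of the IL-6 family, oncostatin M among them, share the receptor chain gp130, signal through JAK1 to STAT3, and induce SOCS3, which binds gp130 and JAK and shuts the signal off. IL-33, an alarmin released by damaged barrier cells, acts through ST2, a receptor of the IL-1 family, on cells that make type 2 cytokines. Type 2 cytokines are prominent in atopic dermatitis, for which loss of FLG is a known human risk factor.

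Library totals lay between 15601859 and 23200440 counts. Values below are CPM (counts scaled to a fixed library size, with sizes adjusted by TMM) or TPM (counts divided by exon length and scaled to a fixed sum per library, without TMM factors) where genes are compared with each other per exon length. Flg itself had 2, 0, 0 and 4 counts in ko/ko replicates 1 to 4 and 0, 0, 6, 2 and 4 counts in wt/wt replicates 1 to 5, which cannot check the genotype labels. The sorted cells did not read as keratinocytes alone. The 8 fibroblast markers summed to 33418 to 54883 TPM in ko/ko and 25148 to 47863 TPM in wt/wt, against 2004 to 3668 TPM in ko/ko and 1550 to 3843 TPM in wt/wt for the 8 basal keratinocyte markers. Some libraries stood apart. The predicted gene Gm10800 took 3958 and 12663 CPM of library totals in ko/ko replicates 1 and 4 and 2188 CPM in wt/wt replicate 1. The remaining 6 libraries held 2.76 to 270 CPM of it. Mitochondrial genes took 6.30% of counts in ko/ko replicate 1 and 1.81% to 2.01% in ko/ko replicates 2 to 4, and 2.77% to 7.55% in wt/wt. All counts come from mixed sorted cells, so fewer cells of a type and less RNA per cell cannot be told apart.

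One short sequence is shown because Socs3 is a textbook STAT3 target and was the gene of the 10 with the smallest p-value. The letters TTCNNNGAA, the palindromic core of STAT binding elements, were searched in RefSeq promoter windows of GRCm38.p6 that hold 250 bases before and 50 after each gene's start. The core reads the same on both strands. It occurred in 1 of the 12 windows of the 10 genes, that of Socs3, and in 8.30% of all 32851 windows. The wider spacing TTCNNNNGAA, which STAT6 is known to prefer, occurred in 0 of the 12 windows and in 6.95% of all windows. The stretch below is chr11:117969471-117969560 on the minus strand, with the match in capitals, from 154 to 146 bases before the RefSeq start. It overlaps 0 of the 6 Socs3 exons in GENCODE M21 and lies in an intron of 1 of its 3 transcripts. A match is a run of letters and not a measured binding site.
Socs3 upstream stretch: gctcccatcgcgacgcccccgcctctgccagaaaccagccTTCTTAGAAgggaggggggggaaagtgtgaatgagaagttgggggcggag

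None of the 10 genes differed between genotypes past the threshold (0 genes with an edgeR quasi-likelihood adjusted p under 0.05 over all 18435 genes tested, where 1 gene, 0.00542%, was called). All 10 passed the filter on low counts. As ko/ko over wt/wt, 4 had positive and 6 had negative log2 fold changes (Stat3 and Jak1 turned positive under some settings), with a median of -0.13, against -0.03 over all genes tested. Only Socs3 had an unadjusted p under 0.05, as lower, which 6.42% of all genes tested had. In 0 of the 10 genes were the CPM ranges of the genotypes separate, against 6.28% of all genes tested. DESeq2 called 0 of the 10, where it called 3.19% of the genes it tested, and limma voom with sample quality weights called 1, Socs3 as lower, where it called 3.17% of all genes as lower.

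**Figure D1:**
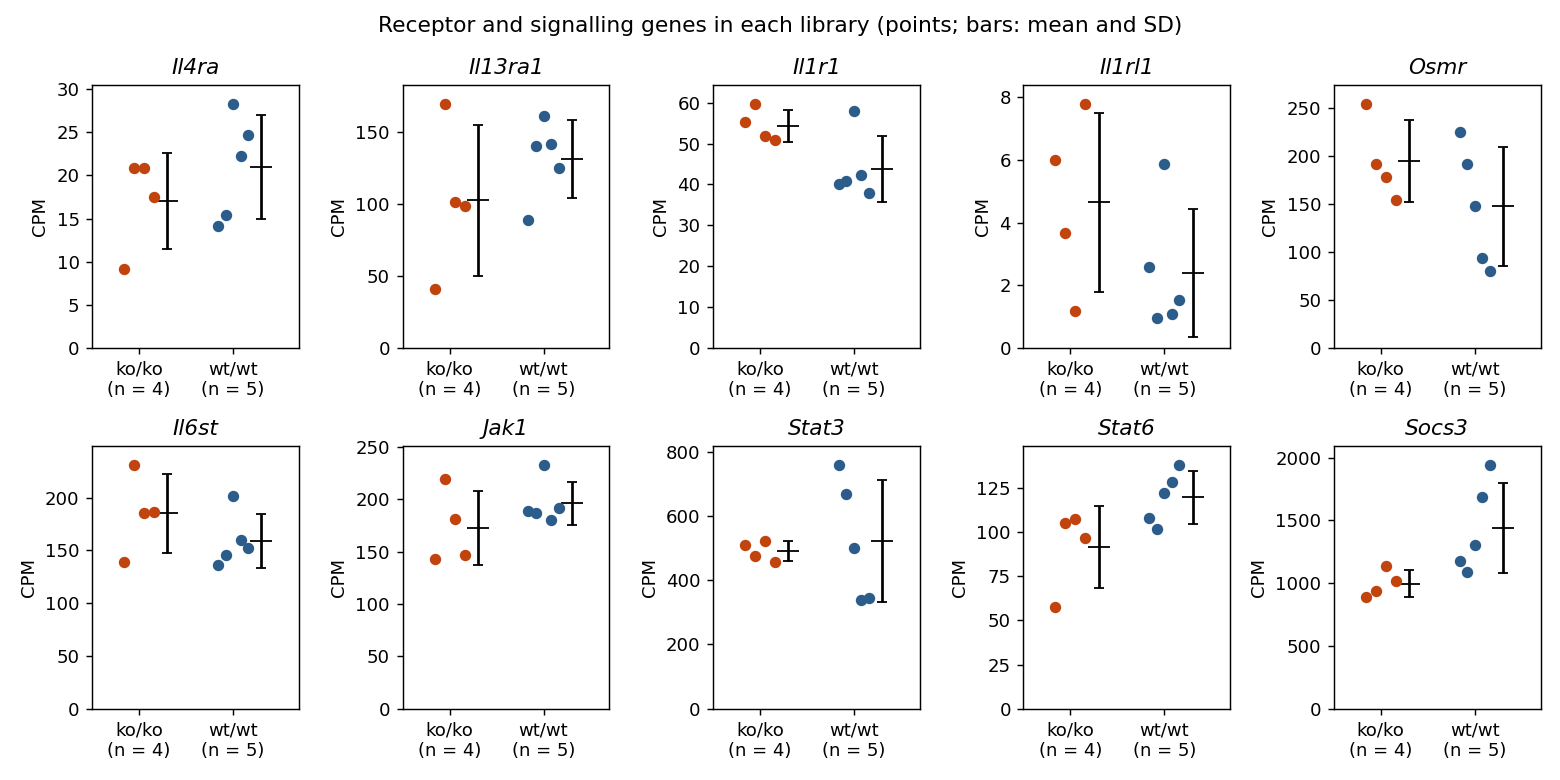
CPM (y axis, from 0) of each of the 10 genes in the 4 ko/ko libraries (left, orange points) and the 5 wt/wt libraries (right, blue points), with the mean and SD as black bars. The ranges of the genotypes overlap in every panel; for Socs3 the overlap is narrow, with a highest ko/ko value of 1136 CPM and a lowest wt/wt value of 1091 CPM.

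The genes spanned a wide range of levels per exon length. Socs3 was highest, at 899 ± 163 TPM in ko/ko and 1144 ± 243 TPM in wt/wt (SD, n = 4 and 5), rank 113 among the genes tested. Stat3 followed at 135 ± 19.2 TPM in ko/ko and 130 ± 55.2 TPM in wt/wt. Il13ra1, Jak1 and Stat6 came next, with means over the 9 libraries of 77.0, 62.7 and 59.1 TPM, and their order was not fixed: Il13ra1 lay above Jak1 in 7 of 9 libraries and Jak1 above Stat6 in 6 of 9. Il6st and Osmr, at 37.7 and 34.6 TPM, also changed places, with Il6st higher in 6 of 9 libraries. Il1r1 had 18.7 TPM, Il4ra 7.76 TPM and Il1rl1 1.20 TPM, and each stood below the gene before it in 9 of 9 libraries. Il13ra1 was the more abundant transcript of the 2 receptor chains for IL-13, in TPM.

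The type 2 receptor chains showed no called difference, and 1 ko/ko library was lowest for both. Il4ra (ENSMUSG00000030748, mm10 chromosome 7, 125552120 to 125579474, plus strand) encodes the chain shared by the IL-4 and IL-13 receptors. It had 9.09, 20.9, 20.9 and 17.5 CPM in ko/ko replicates 1 to 4, against 14.1, 15.4, 28.2, 22.2 and 24.7 CPM in wt/wt replicates 1 to 5. Only ko/ko replicate 1 lay below the wt/wt range, and the log2 fold change was -0.29 (SE 0.28, edgeR adjusted p = 0.647). Without ko/ko replicate 1 it was -0.085, without wt/wt replicate 3 it was -0.16, and without the 3 libraries richest in Gm10800 it was -0.12. Il13ra1 (chromosome X, 36112110 to 36171259, plus strand), the chain that binds IL-13, had 40.6, 169, 101 and 98.5 CPM in ko/ko, against 88.6, 140, 161, 141 and 125 CPM in wt/wt. The ko/ko libraries held both the lowest and the highest value, a range of 4.16-fold within ko/ko and 1.82-fold within wt/wt. Its log2 fold change was -0.36 (SE 0.32, edgeR adjusted p = 0.625). It was -0.09 without ko/ko replicate 1 and -0.71 without ko/ko replicate 2, and -0.07 without the 3 libraries richest in Gm10800. The predicted gene Gm44876 covers 9.51% of the Il4ra exon bases on the other strand, with 0 to 2 counts per library.

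The IL-1 family receptors had positive values in ko/ko that did not pass. Il1r1 (chromosome 1, 40225080 to 40317257, plus strand), the signalling receptor for IL-1, had 55.2, 59.6, 51.9 and 51.0 CPM in ko/ko, against 40.2, 40.9, 58.0, 42.3 and 37.9 CPM in wt/wt. All 4 ko/ko libraries exceeded 4 of the 5 wt/wt libraries, and wt/wt replicate 3 lay inside the ko/ko range. Its log2 fold change was 0.31 (SE 0.15, edgeR adjusted p = 0.350). Il1rl1 (chromosome 1, 40429570 to 40465415, plus strand) encodes ST2, and counts per gene cannot separate its membrane from its soluble form. It had 5.98, 3.66, 1.17 and 7.77 CPM in ko/ko, against 2.59, 0.96, 5.85, 1.07 and 1.51 CPM in wt/wt. Both genotypes held high and low libraries, with a spread of 6.65-fold within ko/ko and 6.10-fold within wt/wt. The log2 fold change was 0.95 (SE 0.62, edgeR adjusted p = 0.485). It was 1.599 without wt/wt replicate 3, 0.58 without ko/ko replicate 4, and 0.04 without the 3 libraries richest in Gm10800. The 8 markers of mast cells, known carriers of ST2, summed to 68.0, 65.1, 24.4 and 7.52 CPM in ko/ko, against 35.2, 9.11, 11.95, 9.65 and 11.2 CPM in wt/wt. Their part in the Il1rl1 values was not tested.

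The gp130 receptor chains were somewhat higher on average in ko/ko, within the spread between libraries. Osmr (chromosome 15, 6813577 to 6874969, minus strand), the oncostatin M receptor chain that also pairs with the IL-31 receptor, had 254, 192, 178 and 154 CPM in ko/ko, against 225, 192, 148, 93.7 and 79.7 CPM in wt/wt. The wt/wt libraries spread over a 2.82-fold range, from replicates 4 and 5 at the bottom to replicate 1 near the top of ko/ko. Its log2 fold change was 0.40 (SE 0.29, edgeR adjusted p = 0.537), and 0.24 without either ko/ko replicate 1 or wt/wt replicate 5 and 0.61 without wt/wt replicate 1. Il6st (chromosome 13, 112464070 to 112510086, plus strand), which encodes gp130, had 139, 231, 185 and 187 CPM in ko/ko, against 136, 145, 201, 160 and 152 CPM in wt/wt. Only ko/ko replicate 2 exceeded the wt/wt range, and the log2 fold change was 0.22 (SE 0.17, edgeR adjusted p = 0.557). Without ko/ko replicate 2 it was 0.10, and without ko/ko replicate 1 it was 0.34. Osmr and Il6st have the longest exon models of the 10 genes, 12113 and 11099 bases. After a correction of every library for exon length, the log2 fold changes of Osmr and Il6st were 0.20 and 0.0048.

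**Figure D2:**
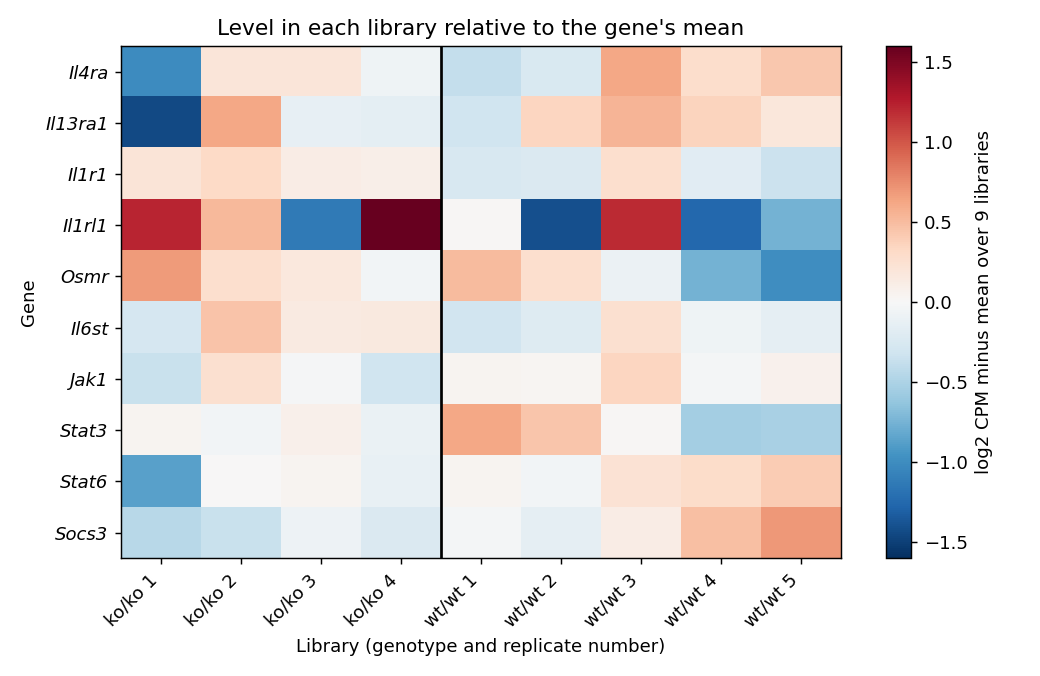
Colours give log2 CPM of each gene (rows) in each library (columns, ko/ko left of the black line and wt/wt right of it) minus the gene's mean over the 9 libraries, red above and blue below. Stat3 and Osmr are red in wt/wt replicates 1 and 2 and blue in wt/wt replicates 4 and 5, where Socs3 is red, and ko/ko replicate 1 is the bluest library for Il4ra, Il13ra1 and Stat6.

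Jak1 and Stat6 had negative log2 fold changes in the main test that did not pass. Jak1 (chromosome 4, 101152367 to 101265282, minus strand), the Janus kinase that both receptor systems use, had 143, 220, 182 and 147 CPM in ko/ko, against 189, 187, 233, 180 and 192 CPM in wt/wt. Replicates 1 and 4 of ko/ko lay below the wt/wt range, and replicates 2 and 3 lay inside it. The log2 fold change was -0.18 (SE 0.16, edgeR adjusted p = 0.613), and 0.0183 without the 3 Gm10800-rich libraries. It was -0.32 without ko/ko replicate 2, and between -0.11 and -0.10 without ko/ko replicate 1, ko/ko replicate 4 or wt/wt replicate 3. Stat6 (chromosome 10, 127642986 to 127660957, plus strand), the factor downstream of IL-4 and IL-13, had 57.4, 105, 108 and 96.6 CPM in ko/ko, against 108, 102, 122, 128 and 138 CPM in wt/wt. Of wt/wt, only replicate 2 lay below the highest ko/ko libraries, and ko/ko replicate 1 was again the lowest library. Its log2 fold change was -0.39 (SE 0.19, edgeR adjusted p = 0.364) and -0.22 without ko/ko replicate 1. That library had the highest mitochondrial share of ko/ko, at 6.30% of counts. Of wt/wt, replicate 2 held a share of 7.55% and the lowest Stat6 value, 102 CPM, and replicate 4 held 6.08% and 128 CPM. The part of the mitochondrial share in the low values of ko/ko replicate 1 was not tested.

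Stat3 (chromosome 11, 100885098 to 100939540, minus strand), the factor downstream of gp130, varied more within wt/wt than between genotypes. It had 510, 476, 522 and 456 CPM in ko/ko, against 759, 670, 500, 339 and 344 CPM in wt/wt. The 4 ko/ko libraries lay within 1.14-fold of each other and inside the wt/wt range, which spanned 2.24-fold. The log2 fold change was -0.09 (SE 0.24, edgeR adjusted p = 0.891), and its sign turned under 5 of 20 other settings, so no direction is given. In wt/wt replicates 1 and 2, where Stat3 was highest, the fibroblast markers summed to 32423 and 26743 CPM, while wt/wt replicates 3 to 5 held 55811 to 61892 CPM. Lymphatic endothelial markers summed to 816 and 760 CPM there, against 269 to 377 CPM in wt/wt replicates 3 to 5, and to 138 to 210 CPM in ko/ko. The part of these cell types in the Stat3 and Osmr levels was not tested.

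Socs3, the feedback inhibitor of gp130 signalling, had lower values in ko/ko than in wt/wt on average, with 1 overlap. Socs3 (chromosome 11, 117966079 to 117970047, minus strand), whose upstream stretch is printed above, had 887, 938, 1136 and 1020 CPM in ko/ko, against 1178, 1091, 1300, 1684 and 1941 CPM in wt/wt. Only ko/ko replicate 3 lay above the lowest wt/wt library, replicate 2. Means were 995 ± 109 CPM in ko/ko and 1439 ± 361 CPM in wt/wt (SD, n = 4 and 5), which gave -0.53 on the log2 scale (SE 0.20, unadjusted p = 0.0200 and adjusted p = 0.248 in edgeR). Its sign was negative under all 20 other settings, with log2 fold changes of -0.61 to -0.40 and adjusted p of 0.0472 to 0.469. DESeq2 gave an adjusted p of 0.134 and limma voom with quality weights 0.0472.

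Genes that tissue dissociation is known to induce were also mostly negative in ko/ko. They were genes of the immediate early response and the heat shock genes Hspa1a (log2 fold change -0.32) and Hspa1b. The 12 such genes counted, called early response genes below, were Fos, Fosb, Jun, Junb, Egr1, Atf3, Ier2, Ier3, Zfp36, Dusp1, Hspa1a and Hspa1b. Of these, 10 had negative and 2 had positive log2 fold changes (median -0.25), where 47.4% of all genes tested were positive. The values of Egr1 and Ier2 were near 0 (-0.0076 and -0.0046). In edgeR 0 passed the adjusted test. An unadjusted p under 0.05 was found for 2 as lower, where 6.42% of all genes tested had one. Of the 12, 1 had such a p as higher, against 8.86% of all genes tested. DESeq2 called 1 of them, Atf3 as lower, where it called 3.19% of all genes. Voom with quality weights called Atf3 as lower and Hspa1b as higher, where it called 3.17% of all genes as lower and 6.60% as higher. Hspa1b, which encodes an inducible heat shock protein, had 72.8, 44.4, 52.9 and 30.6 CPM in ko/ko, against 34.6, 37.4, 23.5, 21.4 and 18.7 CPM in wt/wt (log2 fold change 0.89, SE 0.27, edgeR adjusted p = 0.193). Hspa1a and Hspa1b are closely related genes that lie near each other on chromosome 17, so the count of each is uncertain. Atf3, a stress-induced repressor, had 1724, 1780, 1828 and 1755 CPM in ko/ko, against 2360, 2531, 2474, 2721 and 2950 CPM in wt/wt. Its ranges were separate, and its adjusted p was 0.145 in edgeR and 0.00116 in DESeq2. Atf3 and Hspa1b were both chosen after their values were seen. The 12 genes summed to 37886, 39243, 37871 and 39802 CPM in ko/ko, against 44255, 41128, 42749, 47070 and 51667 CPM in wt/wt. These sums did not overlap, but in TPM, without TMM factors, ko/ko libraries held 38352 to 44341 and wt/wt libraries 39474 to 48050, which overlap. The part of such a dissociation response in the Socs3 values was not tested.

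**Figure D3:**
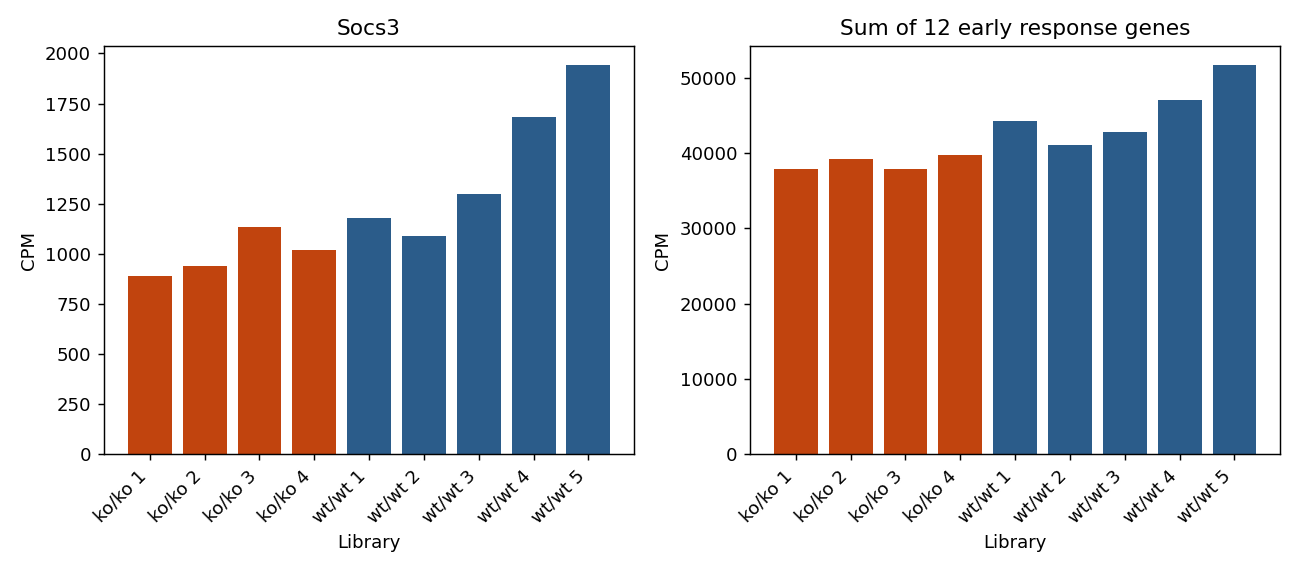
Bars give CPM of Socs3 (left) and the summed CPM of the 12 early response genes (right) in each ko/ko (orange) and wt/wt (blue) library, with axes from 0. Both are highest in wt/wt replicates 4 and 5, at 1684 and 1941 CPM for Socs3 and 47070 and 51667 CPM for the sum. Within ko/ko, replicate 3 is highest for Socs3 (1136 CPM) and lowest for the sum (37871 CPM). Within wt/wt, replicate 3 lies above replicate 1 for Socs3 (1300 against 1178 CPM) and below it for the sum (42749 against 44255 CPM).

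**Figure D4:**
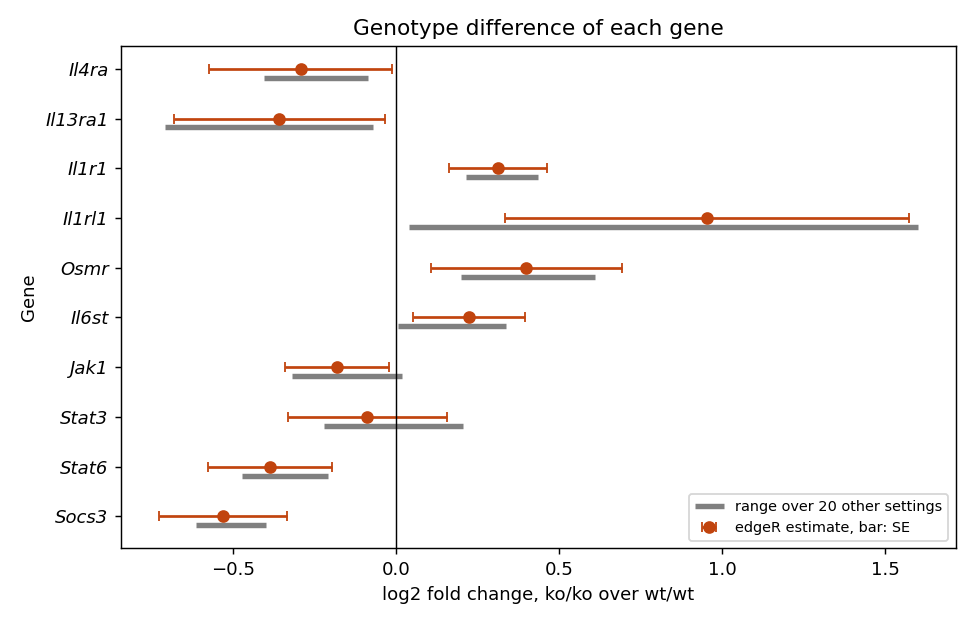
Points give the log2 fold change, ko/ko over wt/wt, of each gene in edgeR with its SE as the orange bar, and grey bars give the range over 20 other settings. The grey bars of Stat3 and Jak1 cross 0; that of Socs3 runs from -0.61 to -0.40.

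Around these genes, 9 lists with 99 other genes of the same pathways were counted, of which 80 were tested. Of the 80, 0 passed edgeR's adjusted test (adjusted p from 0.148 to 0.994). Positive log2 fold changes were found for 48 and negative for 32 (median 0.07), where 47.4% of all genes tested were positive. An unadjusted p under 0.05 was found for 12 as higher, where 8.86% of all genes tested had one, and for 7 as lower. Over all genes tested these were 1633 higher and 1183 lower, and 2124 and 598 without scaling factors. Limma voom with quality weights called 6 as higher, where it called 6.60% of all genes, and 1 as lower, where it called 3.17%. Those called higher were Il33, Il2rg, Irak1, Socs7, Bcl6 and Vegfa, and the one called lower was Crlf2. The ranges of the genotypes were separate for 6 of the 80, 2 higher and 4 lower in ko/ko, where 6.28% of all genes tested were separate. DESeq2 called 3 of the 88 genes to which it gave an adjusted p, where it called 3.19% of all genes. These were Il33, Vegfa and Retnla.

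Of 8 type 2 ligands, only Il33 and Tslp passed the filter on low counts. Il9 had 0 counts in all 9 libraries, which allows up to 0.129 to 0.192 CPM of the unadjusted library totals (3 counts, counting error only). Il4, Il5, Il13, Il25 and Il31 had 0 to 20 counts per library and were not tested. Il33 had 23.1, 29.2, 25.2 and 30.7 CPM in ko/ko, against 11.1, 12.8, 23.3, 11.6 and 13.6 CPM in wt/wt. Only wt/wt replicate 3 reached the ko/ko range, and the log2 fold change was 0.90 (SE 0.23, edgeR adjusted p = 0.148, DESeq2 adjusted p = 0.0210). Tslp, an epithelial alarmin, had 2.03 ± 0.796 CPM in ko/ko and 2.02 ± 0.860 CPM in wt/wt (SD, n = 4 and 5).

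Of 10 other type 2 receptor genes, 7 were tested, 3 positive and 4 negative. Il2rg, the common gamma chain of leukocyte receptors, had 8.29, 4.84, 3.37 and 2.72 CPM in ko/ko, against 3.55, 2.21, 1.76, 1.57 and 1.28 CPM in wt/wt (edgeR adjusted p = 0.218). The predicted gene Gm20489 covers 30.5% of its exon bases on the same strand, so its count is uncertain. Csf2rb, the common beta chain for IL-3, IL-5 and GM-CSF, had 14.6, 5.11, 7.58 and 2.82 CPM in ko/ko, against 2.88 to 3.94 CPM in wt/wt, and its count is uncertain because of its near-identical neighbour Csf2rb2. Il31ra, the partner of Osmr in the IL-31 receptor, had a log2 fold change of 1.59 (SE 0.66) at a mean of 1.16 CPM in ko/ko and 0.386 CPM in wt/wt. Crlf2, the TSLP receptor chain, averaged 2.73 ± 0.453 CPM in ko/ko and 4.77 ± 1.55 CPM in wt/wt (edgeR adjusted p = 0.265, voom with quality weights 0.0352 as lower).

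Il2rg, Csf2rb and Il1b are also expressed by leukocytes, whose markers were present. The 12 myeloid markers summed to 216, 251, 118 and 38.8 CPM in ko/ko, against 63.4, 18.3, 89.5, 85.0 and 52.2 CPM in wt/wt, with 11 of 11 tested markers positive and none at 0 in every library. Of the 4 ko/ko libraries, replicate 4 was lowest for all 3 genes and for these markers, while within wt/wt replicate 3 was highest for the markers and for none of the 3 genes. Il1b, a ligand of Il1r1, had 14.0, 15.0, 6.69 and 0.30 CPM in ko/ko, against 2.23, 0.58, 0.63, 0.20 and 0 CPM in wt/wt, and its log2 fold change was 3.63 (SE 1.03), at an edgeR adjusted p of 0.174. The 8 T cell and innate lymphoid markers summed to 61.6, 51.6, 53.3 and 52.3 CPM in ko/ko and to 36.7 to 53.2 CPM in wt/wt. The part of residual leukocytes in these values was not tested.

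The remaining IL-1 genes split in direction, with 5 of 13 positive and 8 negative. Irak1, a kinase below the IL-1 receptors, averaged 31.7 ± 5.75 CPM in ko/ko and 20.6 ± 5.39 CPM in wt/wt (log2 fold change 0.62, SE 0.21, edgeR adjusted p = 0.217). Irak2, a related kinase, averaged 17.0 ± 2.24 CPM in ko/ko and 25.4 ± 7.09 CPM in wt/wt (log2 fold change -0.57, SE 0.21, edgeR adjusted p = 0.244). Both had ranges that overlapped between genotypes.

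For the gp130 ligands, 5 of 9 were tested and 0 had an unadjusted p under 0.05. Il6 had 45.3, 97.0, 54.8 and 61.2 CPM in ko/ko, against 30.0, 29.2, 118, 76.8 and 61.7 CPM in wt/wt, so wt/wt held both extremes. Clcf1, a ligand of the ciliary neurotrophic factor receptor, averaged 45.3 ± 8.40 CPM in ko/ko and 58.5 ± 9.58 CPM in wt/wt (edgeR adjusted p = 0.340). Osm, the ligand of Osmr, had 0 to 19 counts per library and was not tested. Of 6 other gp130-family receptor genes, 4 were positive and 2 negative with none under an unadjusted p of 0.05. Il11ra1, the IL-11 receptor chain, averaged 288 ± 80.1 CPM in ko/ko and 273 ± 81.7 CPM in wt/wt, and Lifr, the LIF receptor, 46.2 ± 9.06 CPM in ko/ko and 44.9 ± 4.33 CPM in wt/wt.

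Among 8 other Janus kinases and STATs, 7 were positive and 1 was negative (median log2 fold change 0.21), and none had an unadjusted p under 0.05. Of all genes tested, 47.4% were positive. Stat5a averaged 71.0 ± 21.1 CPM in ko/ko and 61.3 ± 23.1 CPM in wt/wt, and Stat2 55.6 ± 23.9 CPM in ko/ko and 53.4 ± 23.5 CPM in wt/wt. Stat5a and Stat3 overlap by 72 exon bases on opposite strands. Among 15 other inhibitors, 8 were positive and 7 negative. Pias3, an inhibitor of STAT3, had 42.6, 35.9, 49.1 and 46.4 CPM in ko/ko, against 56.4, 52.8, 54.3, 56.6 and 74.5 CPM in wt/wt. Its ranges were separate, and its log2 fold change was -0.44 (SE 0.15), at an edgeR adjusted p of 0.229. Socs5, a relative of Socs3, had 56.4, 61.9, 45.3 and 40.5 CPM in ko/ko, against 41.6, 39.3, 47.2, 36.4 and 35.3 CPM in wt/wt (log2 fold change 0.35, SE 0.16, edgeR adjusted p = 0.321).

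Known STAT3 targets did not share a direction, with 9 of 17 tested positive and 8 negative (median log2 fold change 0.01). An unadjusted p under 0.05 was found for 3 as higher and 4 as lower, where 8.86% and 6.42% of all genes tested had one. Ranges were separate for 2 as higher and 3 as lower, where 6.28% of all genes tested were separate in either direction. Vegfa, a vascular growth factor, had 20.1, 12.9, 15.3 and 11.4 CPM in ko/ko, against 9.68, 8.25, 7.66, 4.98 and 2.38 CPM in wt/wt, with separate ranges (log2 fold change 1.18, SE 0.35, edgeR adjusted p = 0.184, DESeq2 adjusted p = 0.0376). Mcl1, a survival protein, had 385, 353, 279 and 284 CPM in ko/ko, against 238, 188, 264, 233 and 210 CPM in wt/wt, also separate (edgeR adjusted p = 0.184). Bcl2l1, another survival gene, ran the other way at 40.3 ± 6.35 CPM in ko/ko and 57.5 ± 10.9 CPM in wt/wt, with separate ranges (edgeR adjusted p = 0.216). Bcl6, a transcriptional repressor, had 19.1, 18.7, 32.8 and 14.1 CPM in ko/ko, against 15.97, 12.81, 12.54, 8.481 and 10.04 CPM in wt/wt (edgeR adjusted p = 0.205). The other 3 genes with a lower value at an unadjusted p under 0.05, named after their values were seen, were Lcn2, Junb and Pim1. Lcn2, which encodes the iron-binding lipocalin 2, had 2.70, 5.29, 9.87 and 13.4 CPM in ko/ko, against 14.5, 20.5, 14.4, 14.2 and 13.9 CPM in wt/wt (log2 fold change -0.99, edgeR adjusted p = 0.257). Its ranges were separate, as were those of Junb, an AP-1 subunit that is also in the early response list (log2 fold change -0.34, edgeR adjusted p = 0.319). Those of Pim1, a survival kinase, overlapped (log2 fold change -0.46, edgeR adjusted p = 0.257).

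Known STAT6 targets were all positive among the 7 tested, with a median log2 fold change of 0.62, and 0 passed edgeR's adjusted test. Postn turned negative under 2 of 20 other settings, and Ccl17 under 1 of 20. Of all genes tested 47.4% were positive, with a median of -0.03. The other 5 of the 12 listed failed the filter. In DESeq2, Fcer2a and Alox15 of these had negative log2 fold changes (-0.53 and -0.08), and Retnla, Chil3 and Ccl22 had positive ones. Ccl11, which encodes the eosinophil chemokine eotaxin, had 62.7, 97.6, 48.1 and 52.1 CPM in ko/ko, against 17.2, 9.06, 55.1, 41.2 and 30.4 CPM in wt/wt (log2 fold change 1.09, SE 0.43, edgeR adjusted p = 0.269). Its ranges overlapped through wt/wt replicate 3. Ccl24, a related chemokine of macrophages, averaged 1.71 ± 1.81 CPM in ko/ko and 0.249 ± 0.328 CPM in wt/wt (edgeR adjusted p = 0.272). Retnla, an IL-4-induced gene of macrophages named here after its values were seen, had 109, 245, 106 and 0 counts in ko/ko, against 0, 0, 1, 2 and 1 counts in wt/wt. It failed the edgeR filter. DESeq2 gave an adjusted p of 0.00245, and edgeR without a filter 0.113. Mrc1, 1 of the 7 and named here after its values were seen, had 9.03, 9.72, 3.55 and 1.56 CPM in ko/ko. Its wt/wt values were 4.82, 3.74, 1.17, 0.914 and 0.780 CPM (edgeR adjusted p = 0.343). Retnla, Ccl24 and Mrc1, like the myeloid markers, were lowest in replicate 4 among the ko/ko libraries. Of the other tested targets, Arg1, Ccl11 and Ccl17 were lowest in ko/ko replicate 3, and Postn and Cdh26 in ko/ko replicate 1. Within wt/wt, Mrc1 and Ccl24 were highest in replicate 1, and the myeloid markers in replicate 3. The part of residual myeloid cells in any of these genes was not tested.

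**Figure D5:**
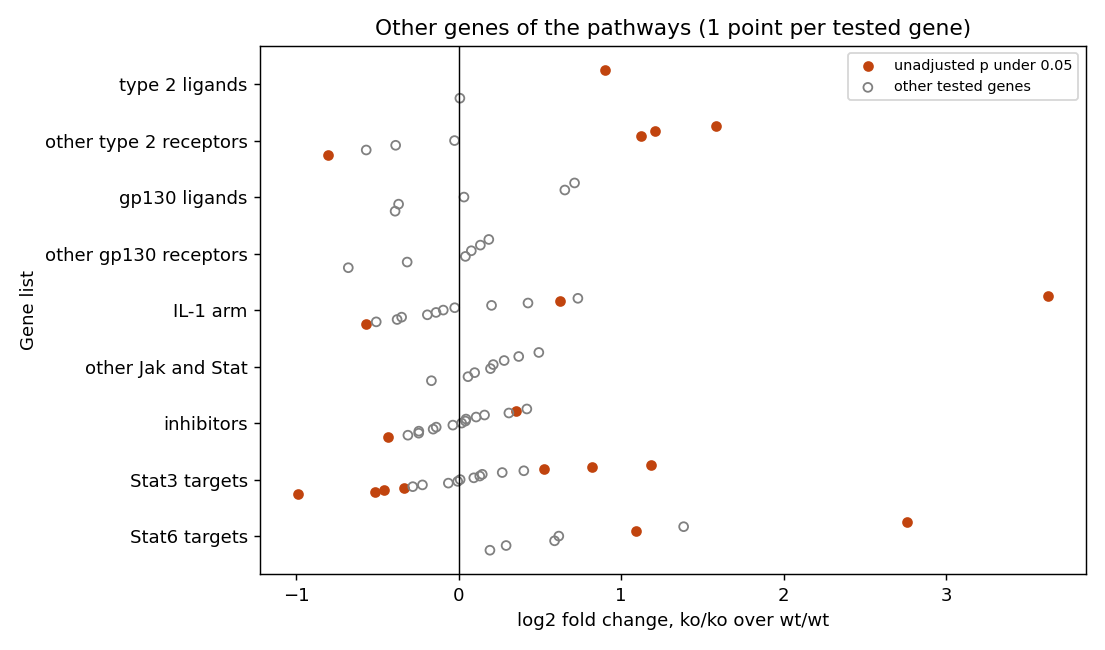
Each point is 1 tested gene of the 9 pathway lists (rows), placed by its log2 fold change, ko/ko over wt/wt (x axis); filled orange points have an unadjusted edgeR p under 0.05 and open points do not. None passed after adjustment, and the point farthest to the right is Il1b at 3.63.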

How the data were processed

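RNA was sequenced from 4 ko/ko and 5 wt/wt samples. The authors deposited raw read counts per gene, with exon lengths. GSNAP and featureCounts 1.6.2 on mm10 made them, per the submitters' processing notes; strand handling is not given in the sources used here. Of 49763 rows, 92 spike-ins were left out. Symbols came from GENCODE M21 identifiers for 49326 rows; the coordinates printed are those of the deposited table.

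The counts were tested with edgeR 4.0.16 (R 4.3.3): filterByExpr (18435 genes kept), TMM, glmQLFit (robust) and glmQLFTest, two-sided, adjusted by Benjamini-Hochberg over all genes tested, threshold 0.05. The SE was taken as |log2 fold change| divided by the root of F. TPM used exon lengths. DESeq2 1.42.0, limma 3.58.1, other scalings, filters, trends on length or GC (loess span 0.3) and left-out libraries were alternatives. The test was also run on simulated data with known changes, and the outcome is not reported here.

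Replicate numbers follow accession order. No library was a copy of another: every pair differed beyond sampling noise, with chi-square of 23.9 or more per degree of freedom. P-values measure the spread between these samples, which may be partly technical, and treat each sample as independent. Members and lists were chosen with earlier results of these data known. From each list the text names genes with an unadjusted p under 0.05, up to 4 by p, or, with fewer than 2 such genes, also the 2 most abundant. Floors are 3 counts and cover counting error only.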

Additional observations from a re-analysis of the deposited data

Results flagged for a closer look

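In 86 groups of libraries examined for a single value standing apart on the log2(CPM + 0.1) scale (log2 CPM for marker sums), 7 were found, where chance gives about 1 in 20 (4.3 expected). In wt/wt replicate 3, Il1r1 was 5.86 against 5.25 to 5.40 in the other wt/wt libraries, Jak1 was 7.86 against 7.49 to 7.59, and Il33 was 4.55 against 3.48 to 3.77. Il31ra was -2.78 in wt/wt replicate 5, against -1.03 to -0.67 in the others. Stat5a was 6.68 in wt/wt replicate 1, against 5.60 to 5.75. Pias3 was 6.22 in wt/wt replicate 5, against 5.73 to 5.83. The summed mast cell markers were 5.14 in wt/wt replicate 1, against 3.19 to 3.58. No ko/ko library was found in this way, in groups of 4 where the gap must be a larger part of the range.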

How the results depend on the processing

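No paired analysis was possible because the labels give no replicate numbers that the genotypes share. For the 10 genes and Il33, 220 values under 20 other settings were compared with those reported: 211 kept their sign and their side of the threshold. Stat3 turned sign with no scaling factors (0.0026), with weighted voom (0.21), without wt/wt replicates 1 or 2 (range over left-out libraries -0.21 to 0.0895), and without the 3 libraries richest in Gm10800 (0.11), where Jak1 also turned (0.0183). The other 3 passed where the main test did not: Socs3 with weighted voom (-0.56), and Il33 with DESeq2 (0.90) and weighted voom (0.84). The count of the 10 genes called was 0, and 1 with weighted voom. Over all genes the count was 1, and 4 with no factors, 28 with no filter, 690 with DESeq2, 1802 with weighted voom, 31 at an adjusted p under 0.10, 7 without those 3 libraries, and 0 to 12 with 1 library left out (12 without ko/ko replicate 4). The cause of these differences was not tested. With no factors, no filter and DESeq2, the median log2 fold change over all genes differed from the main one by 0.11, 0.17 and 0.20. No filter and DESeq2 also took in genes that the main filter removed. The median of the 10 genes was -0.0356, -0.1684 and -0.1354 under these settings, against -0.1346 in the main test. Genes with few counts, such as Il1rl1 and Il31ra, are the least precise here.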
